A study of Mus musculus with 12 samples.

Results

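Hepatocyte identity is held by a small set of DNA-binding proteins, and the 9 genes described here encode the best known of them: Hnf4a, Foxa1, Foxa2, Foxa3, Cebpa, Cebpb, Onecut1, Onecut2 and Prox1. They were chosen by name, and all 9 were found among the 23420 genes of the count tables and among the 13693 genes with enough reads to test. HNF4A is a nuclear receptor that binds the control regions of most genes of liver metabolism and secretion. The FOXA proteins open closed chromatin at liver enhancers, C/EBP proteins drive metabolic and acute phase genes, the Onecut proteins act early in liver and bile duct development, and PROX1 is a homeobox protein needed for outgrowth of the liver bud. In the developing liver these factors bind one another's genes, so that each helps to keep the others expressed.

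RNA from whole liver of C57BL/6 mice was sequenced in 12 libraries, 2 for each of 6 groups, to ask how loss of Gdown1, a protein encoded by Polr2m that binds RNA polymerase II, alters liver gene expression with and without p53. KO livers (Gdown1 flox/flox;Alb-Cre) were set against FF livers (Gdown1 flox/flox), both at 7 weeks. DKO livers (Gdown1 flox/flox;Alb-Cre;p53-/-) were set against p53KO livers (Gdown1 flox/flox;p53-/-), both at 8 weeks. DKO TAM livers (Gdown1 flox/flox;Alb-CreERT2;p53-/-) were set against p53KO TAM livers (p53-/- and floxed for Gdown1, with no Cre named), both taken 24 hours after tamoxifen at an age that is not given. All 6 groups carry floxed Gdown1. Cre is driven by the albumin promoter, which aims the deletion at hepatocytes, and Cre itself cannot be told apart from the deletion it causes.

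Library totals ran from 4939408 to 8776369 counts, and all 6 hepatocyte markers checked (Alb, Apoa1, Apoa2, Ttr, Fgb and Trf) were present in every group. Polr2m, the targeted gene, had 59.4 to 64.7 CPM (reads scaled to library size) in KO livers against 96.7 to 100.3 in FF livers. It had 58.1 to 60.0 CPM in DKO livers against 89.1 to 102.7 in p53KO livers, and 54.6 to 65.9 CPM in DKO TAM livers against 75.9 to 78.7 in p53KO TAM livers. Trp53, which encodes p53, had 8.13 to 10.01 CPM in DKO and DKO TAM livers against 2.79 to 3.97 CPM in p53KO and p53KO TAM livers, and 17.1 and 22.5 CPM in KO livers against 13.1 and 7.94 CPM in FF livers. The part of the gene that the p53-/- allele lacks is not given in the labels, so these counts do not check the p53 labels. Albumin took 3.07% and 3.33% of counts in KO livers against 5.94% and 4.93% in FF livers, and 1.80% to 2.71% in DKO and DKO TAM livers against 5.90% to 6.27% in p53KO and p53KO TAM livers. Such shifts make the scale matter, so fold changes are on a TMM scale, which takes most genes as unchanged, unless library totals alone are named, and calls on library totals are set beside the main results. Library totals raised the median gene, relative to TMM, by 0.26 (log2) in KO livers set against FF livers, by 0.77 in DKO livers set against p53KO livers, and by 0.35 in the tamoxifen pair. Polr2m fell in DKO livers on the TMM scale (log2 fold change -0.70 ± 0.13 SE) and stood at 0.07 ± 0.13 on library totals. After tamoxifen it was not called on either scale (-0.36 ± 0.13 and -0.01 ± 0.13).

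The members other than Onecut2 lie at mm10 positions chr2:163547188-163572907 for Hnf4a, chr12:57540632-57546121 for Foxa1, chr2:148042878-148046969 for Foxa2, chr7:19013283-19023539 for Foxa3, chr7:35119293-35121931 for Cebpa, chr2:167688915-167690418 for Cebpb, chr9:74861921-74889647 for Onecut1 and chr1:190121777-190170680 for Prox1. Foxa1, Foxa2, Foxa3 and Prox1 are read from the minus strand and the other 5 members from the plus strand. Their summed exons span 1504 bases (Cebpb, a gene of 1 exon) to 13391 bases (Onecut2). No exon base of these genes is shared with the model of another gene in the count table, and the 4 file headers that give counting options set none for strand. In GENCODE M21, 20.7% of the Cebpb exon bases are shared with Tmem189 on the opposite strand, 18.8% of those of Onecut1 with the long noncoding RNA Gm20649 on the same strand, 3.21% of those of Prox1 with its antisense RNA Prox1os and 1.93% of those of Cebpa with the antisense RNA Gm45091. Reads from those partners in the shared bases cannot be told apart from reads of the member.

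RefSeq promoter windows of the build GRCm38.p6, each of 300 bases from 250 before to 50 after an annotated start, were read for 8 of the 9 genes. The 5 windows below belong to genes that were lower together in DKO livers, and they are printed 5′ to 3′ on the coding strand with the matches to the searched motifs in capitals. Hnf4a has a start at the beginning of the counted gene model (chr2:163546905-163547204, plus strand) and another 40331 bases upstream of the model (chr2:163506607-163506906, plus strand). The counts do not separate transcripts of the 2 starts. The Foxa1 window is chr12:57546062-57546361 (minus strand), the Foxa2 window chr2:148046920-148047219 (minus strand) and the Cebpa window chr7:35119043-35119342 (plus strand).
Hnf4a upstream start: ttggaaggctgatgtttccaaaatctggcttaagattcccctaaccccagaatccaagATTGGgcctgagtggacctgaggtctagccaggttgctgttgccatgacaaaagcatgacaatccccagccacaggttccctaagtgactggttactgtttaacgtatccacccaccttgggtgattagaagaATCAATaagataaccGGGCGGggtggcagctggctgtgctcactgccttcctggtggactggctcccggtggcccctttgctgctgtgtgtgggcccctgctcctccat
Hnf4a downstream start: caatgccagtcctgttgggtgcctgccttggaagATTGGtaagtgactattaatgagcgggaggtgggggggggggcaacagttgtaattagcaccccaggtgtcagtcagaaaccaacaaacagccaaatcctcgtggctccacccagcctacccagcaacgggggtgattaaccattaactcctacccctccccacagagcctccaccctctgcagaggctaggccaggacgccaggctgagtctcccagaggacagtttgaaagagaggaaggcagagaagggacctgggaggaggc
Foxa1: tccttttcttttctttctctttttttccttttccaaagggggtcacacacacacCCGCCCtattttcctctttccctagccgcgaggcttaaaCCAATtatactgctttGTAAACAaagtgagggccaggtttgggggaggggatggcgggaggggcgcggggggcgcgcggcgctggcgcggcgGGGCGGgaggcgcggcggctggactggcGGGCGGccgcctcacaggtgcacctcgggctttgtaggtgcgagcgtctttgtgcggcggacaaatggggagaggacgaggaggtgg
Foxa2: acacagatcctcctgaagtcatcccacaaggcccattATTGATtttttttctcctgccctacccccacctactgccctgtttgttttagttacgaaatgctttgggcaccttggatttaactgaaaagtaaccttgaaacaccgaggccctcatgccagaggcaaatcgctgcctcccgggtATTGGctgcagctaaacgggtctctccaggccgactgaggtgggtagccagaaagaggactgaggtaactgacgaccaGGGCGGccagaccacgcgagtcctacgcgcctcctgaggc
Cebpa: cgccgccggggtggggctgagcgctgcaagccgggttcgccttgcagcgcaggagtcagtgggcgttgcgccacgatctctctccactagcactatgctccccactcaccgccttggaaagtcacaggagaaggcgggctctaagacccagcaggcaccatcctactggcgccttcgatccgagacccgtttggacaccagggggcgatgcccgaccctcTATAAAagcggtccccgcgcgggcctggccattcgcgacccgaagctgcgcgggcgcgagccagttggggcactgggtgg

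Both strands were searched for exact letters: FOXA (TGTTTAC and TGTTTGC), Onecut (ATCAAT and ATCGAT), HNF4 (CAAAGTCCA and CAAAGGTCA), C/EBP (TTGCGCAA and TTGCACAA), CCAAT and the GC box (GGGCGG), and the sense strand for TATAAA. No match in the 5 printed windows overlaps another. The upstream Hnf4a window holds ATCAAT beginning 59 bases before the start, and the Foxa2 window holds its reverse complement 213 bases before the start. These letters are present in 7.54% of all 32851 windows. The Foxa1 window holds the reverse complement of TGTTTAC 141 bases before the start, a match found in 3.65% of windows, and a second Prox1 window holds TGTTTGC 120 bases before the start, found in 5.07%. The Cebpa and Foxa3 windows carry TATAAA 30 and 36 bases before the start, and the Cebpb window from base 22, counting the start as 1. These letters stand somewhere in 8.32% of windows. No window of these 8 genes held the searched letters of HNF4 or C/EBP, which are in 0.950% and 1.19% of all windows. A match is a description of letters and not a binding site.

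In DKO livers, 7 of the 9 factors were lower than in p53KO livers on the TMM scale, and none was higher. The 7 were Cebpa, Foxa1, Onecut2, Foxa2, Foxa3, Hnf4a and Onecut1, in order of adjusted p. Of all genes tested, 25.7% were lower and 25.7% higher in that comparison. With library totals, 4 remained lower (Foxa1, Onecut2, Cebpa and Onecut1), where 7.0% of all genes were lower and 64.4% higher. In KO livers with p53 present, Foxa1, Foxa2 and Cebpa were lower than in FF livers and none of the 9 was higher, against a background of 7.88% of genes lower and 6.92% higher. With library totals Foxa1 alone stayed lower, where 4.02% of genes were lower and 20.0% higher. In livers taken 24 hours after tamoxifen, none of the 9 was called on the TMM scale, where 10.1% of genes were lower and 8.61% higher. DESeq2 and limma-voom called none there either, and Cebpa alone had an unadjusted p under 0.05. With library totals Prox1 was higher in DKO TAM livers, where 31.7% of genes were higher and 4.28% lower. Calls are adjusted p under 0.05 from edgeR's quasi-likelihood test over all 13693 genes, and since the labels do not state that the libraries of a group come from separate animals (the titles of 8 libraries carry differing numbers with no meaning given), these p-values may describe library-to-library spread only.

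**Figure D1:**
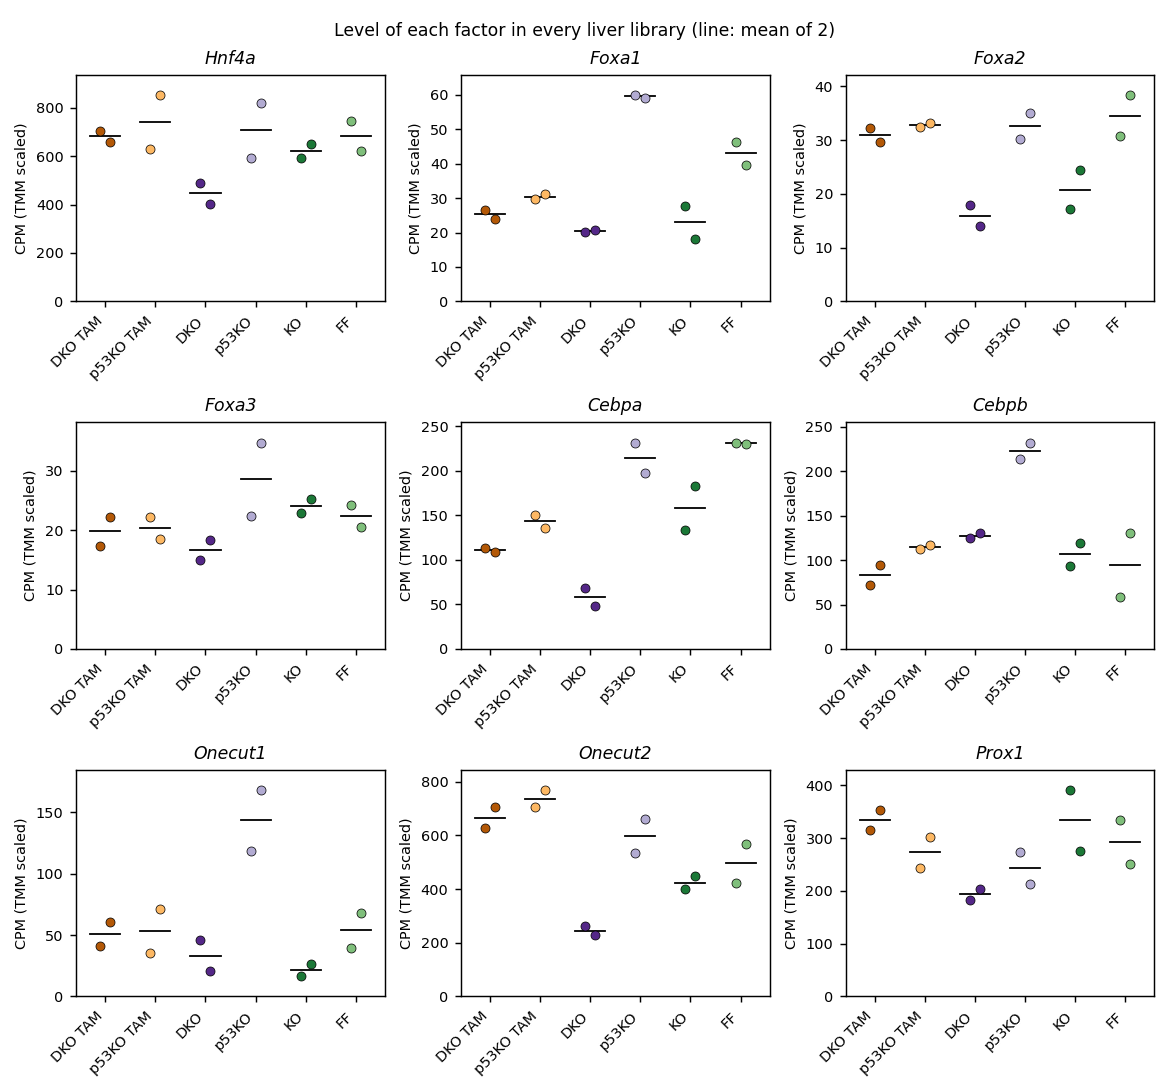
CPM (TMM scaled, linear axis from 0) of the 9 factors in each of the 12 libraries, as points, with the mean of the 2 libraries of each group as a line. Both DKO points of Cebpa (48.2 and 68.8 CPM) lie below every other library, and Foxa1 is at 59.2 and 59.9 CPM in p53KO livers against 18.3 to 46.3 CPM elsewhere.

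The median log2 fold change of the 9 was -1.02 in DKO against p53KO livers, beside 0.01 for all genes tested, -0.23 beside 0.02 in KO against FF livers, and -0.12 beside 0.01 in DKO TAM against p53KO TAM livers. On library totals these medians were -0.26 beside 0.78, 0.03 beside 0.28 and 0.23 beside 0.36. The median of the members lay below that of all genes in all 3 comparisons. A change of scale moves members and other genes by nearly the same amount, so library totals are not a separate check of this order. Whether there were fewer hepatocytes or less of each RNA per hepatocyte cannot be told apart in RNA from whole liver.

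**Figure D2:**
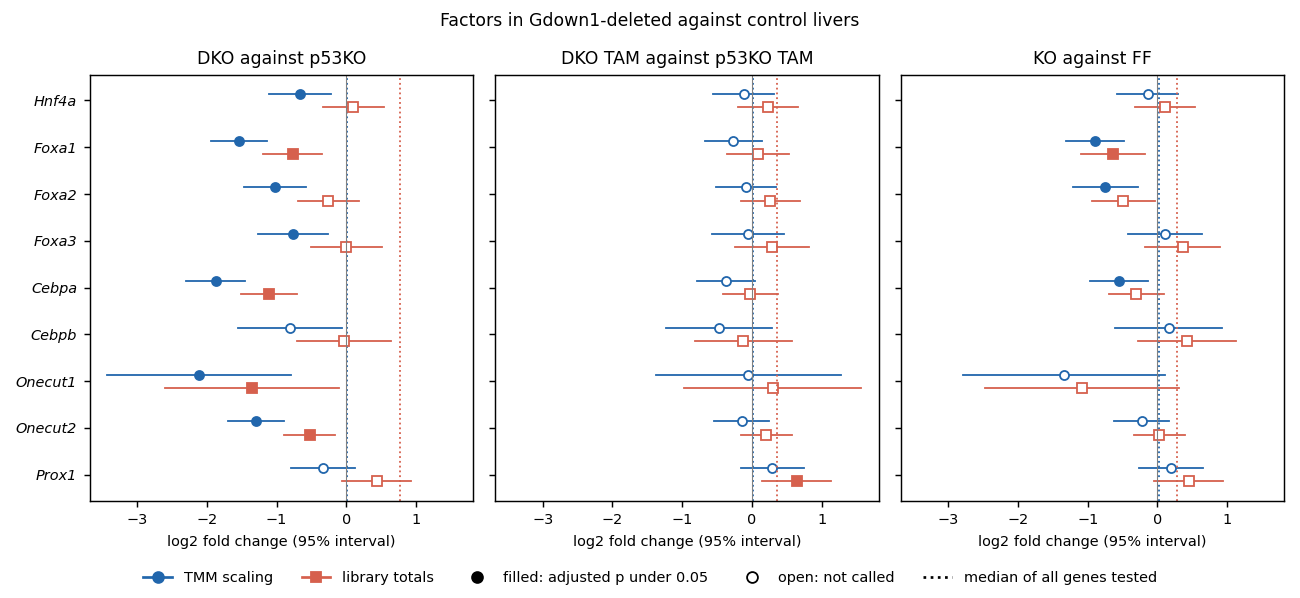
Log2 fold changes of the 9 factors with 95% intervals (6 residual degrees of freedom) in the 3 comparisons of deleted with control livers, on the TMM scale (circles) and on library totals (squares); filled symbols are called, and dotted lines mark the median of all genes. The circles of 7 genes are filled for DKO against p53KO and none for DKO TAM against p53KO TAM, and library totals move every gene to the right.

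Hnf4a, the nuclear receptor at the centre of the network, was 1.59-fold lower in DKO livers. It stood at 488 and 404 CPM in DKO livers against 593 and 821 CPM in p53KO livers. The groups did not overlap, but the 2 control libraries lay further apart than the 2 deleted ones. The log2 fold change was -0.66 ± 0.18 (SE, adjusted p = 0.0055 by edgeR). That call was lost without DKO replicate 3 (-0.54, adjusted p = 0.067) or p53KO replicate 2 (-0.42, adjusted p = 0.088), and the sign turned with library totals (0.10 ± 0.18). In the other comparisons Hnf4a had 591 and 649 CPM in KO livers against 747 and 621 CPM in FF livers, and 705 and 660 CPM in DKO TAM livers against 631 and 852 CPM in p53KO TAM livers. Both pairs of groups overlapped, with log2 fold changes of -0.14 (95% interval -0.58 to 0.30) and -0.12 (-0.56 to 0.32).

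Foxa1, a pioneer factor that opens chromatin ahead of other regulators, was lower in both chronic deletions. It had 20.2 and 20.8 CPM in DKO livers against 59.9 and 59.2 CPM in p53KO livers. It had 27.6 and 18.3 CPM in KO livers against 46.3 and 39.7 CPM in FF livers. Neither pair of groups overlapped. The fall was 2.91-fold in DKO livers (log2 fold change -1.54 ± 0.16, edgeR adjusted p = 8.8e-07) and 1.86-fold in KO livers (-0.90 ± 0.17, adjusted p = 0.0022), and both calls held on library totals (-0.77 ± 0.17 and -0.64 ± 0.19). After tamoxifen Foxa1 had 26.5 and 24.0 CPM in DKO TAM livers against 29.7 and 31.1 CPM in p53KO TAM livers. Those groups did not overlap, but the difference was not called (-0.27 ± 0.17, adjusted p = 0.30). On library totals its sign was the opposite (0.08 ± 0.18).

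Foxa2, the paralogue that acts in fasting metabolism and bile acid handling, was also lower in both, at a depth of 101 to 310 reads a library. It had 17.9 and 14.0 CPM in DKO livers against 30.2 and 35.0 CPM in p53KO livers, and 17.1 and 24.4 CPM in KO livers against 30.7 and 38.3 CPM in FF livers. Both differences were called on the TMM scale, with log2 fold changes of -1.02 ± 0.18 (edgeR adjusted p = 0.00020) and -0.75 ± 0.19 (adjusted p = 0.014). Neither was called on library totals (-0.26, adjusted p = 0.20, and -0.49, adjusted p = 0.062), and the KO call was also lost without KO replicate 1 (-0.51, adjusted p = 0.17) or FF replicate 2 (-0.57, adjusted p = 0.16). After tamoxifen the libraries nearly met without overlapping, at 32.29 and 29.54 CPM in DKO TAM livers against 32.34 and 33.20 CPM in p53KO TAM livers (-0.08, 95% interval -0.52 to 0.35).

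Foxa3, the FOXA member found largely in liver and gut, was called only in DKO livers on the TMM scale. It had 15.0 and 18.3 CPM in DKO livers against 22.4 and 34.7 CPM in p53KO livers, a log2 fold change of -0.77 ± 0.21 (edgeR adjusted p = 0.0051). The call was lost without DKO replicate 2 (-0.63, adjusted p = 0.054) or p53KO replicate 2 (-0.44, adjusted p = 0.12), and on library totals the value was 0.00 ± 0.21. In KO livers Foxa3 had 22.9 and 25.2 CPM against 24.2 and 20.6 CPM in FF livers (0.11, 95% interval -0.42 to 0.64). In DKO TAM livers it had 17.3 and 22.3 CPM against 22.3 and 18.6 CPM in p53KO TAM livers (-0.06, -0.57 to 0.45). Both of these pairs overlapped.

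Cebpa, which holds adult hepatocytes in a resting, metabolically active state, showed the smallest p of the 9 in DKO livers. It had 68.8 and 48.2 CPM in DKO livers against 231 and 198 CPM in p53KO livers, a 3.67-fold fall. The log2 fold change was -1.88 ± 0.17 (edgeR adjusted p = 2.7e-07), at percentile 3.2 of all genes tested, and it stayed called on library totals (-1.11 ± 0.16, adjusted p = 1.8e-05). In KO livers it had 133 and 182 CPM against 231 and 230 CPM in FF livers (-0.55 ± 0.17, adjusted p = 0.038). The KO call was lost on library totals (-0.30, adjusted p = 0.18) and without KO replicate 1 (-0.34, adjusted p = 0.29), FF replicate 1 (-0.55, adjusted p = 0.13) or FF replicate 2 (-0.55, adjusted p = 0.13). After tamoxifen it had 113 and 109 CPM in DKO TAM livers against 151 and 136 CPM in p53KO TAM livers. These did not overlap, but the difference missed the threshold (-0.37 ± 0.17, adjusted p = 0.15).

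Cebpb, the C/EBP member induced by injury, cytokines and regeneration, was called in none of the 3 comparisons. It had 125 and 130 CPM in DKO livers against 213 and 232 CPM in p53KO livers. The groups were apart and each was tight, yet the difference missed the threshold narrowly (-0.80 ± 0.30, edgeR adjusted p = 0.053). It was called with DESeq2 (-0.78, adjusted p = 0.0062) and in a fit of these 4 libraries alone (-0.77, adjusted p = 0.00045), and was near 0 on library totals (-0.04). In the 7-week livers the FF libraries themselves differed by more than 2-fold, at 58.5 and 130 CPM, with the KO libraries between them at 93.3 and 120 CPM (0.16, 95% interval -0.60 to 0.93). Without FF replicate 2, Cebpb was called higher in KO livers (0.86, adjusted p = 0.014). After tamoxifen it had 71.5 and 94.6 CPM in DKO TAM livers against 113 and 117 CPM in p53KO TAM livers (-0.47 ± 0.31, adjusted p = 0.34), a difference called in a fit of those 4 libraries alone (adjusted p = 0.044).

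The balance of the C/EBP pair within a library does not depend on any scaling of libraries. This ratio and the 3 others given were chosen after their values were seen and carry no test. Reads of Cebpb numbered 1.82 and 2.70 times those of Cebpa in DKO livers against 0.923 and 1.18 times in p53KO livers. The ratio was 0.702 and 0.655 in KO livers against 0.253 and 0.566 in FF livers, and 0.631 and 0.869 in DKO TAM livers against 0.750 and 0.862 in p53KO TAM livers. Both chronic deletions thus had ratios above both of their controls, while the tamoxifen groups overlapped.

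**Figure D3:**
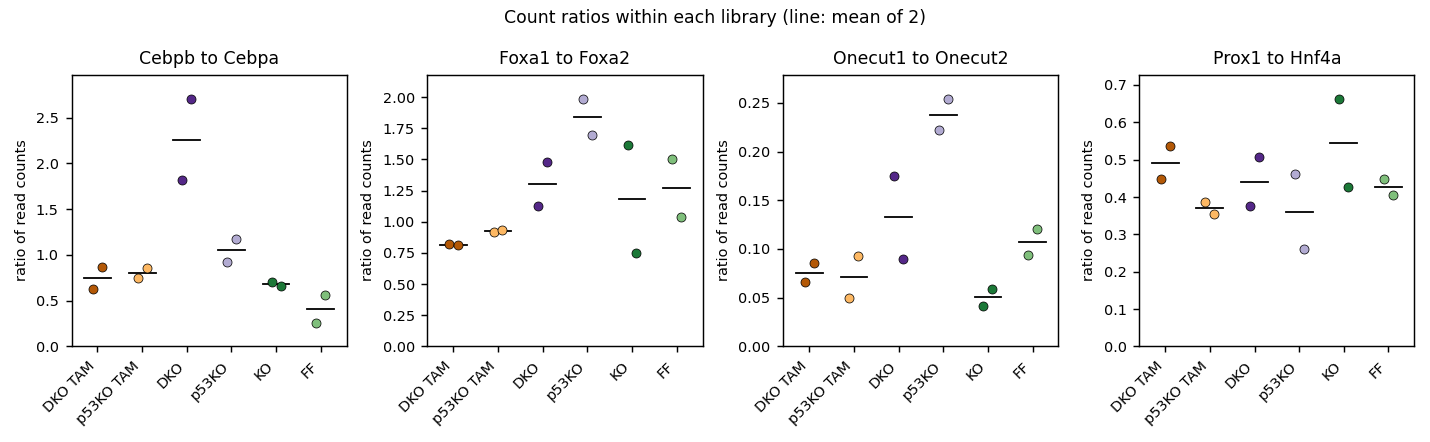
Ratios of read counts within each library (linear axis from 0) for Cebpb to Cebpa, Foxa1 to Foxa2, Onecut1 to Onecut2 and Prox1 to Hnf4a; points are libraries and lines the mean of 2. The 2 DKO libraries have the highest Cebpb to Cebpa ratios (1.82 and 2.70), and the 2 KO libraries sit at 0.0415 and 0.0594 for Onecut1 to Onecut2, below 0.0936 and 0.120 in FF livers.

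Onecut1 (also called HNF6), which regulates bile duct formation and glucose metabolism, had the most negative fold changes of the 9 in DKO and KO livers and a wide spread between libraries. It had 45.7 and 20.5 CPM in DKO livers against 119 and 168 CPM in p53KO livers, a log2 fold change of -2.11 ± 0.54 (edgeR adjusted p = 0.016). The libraries did not overlap, though the DKO pair differed by more than 2-fold. The call held on library totals (-1.35, adjusted p = 0.049) and was lost without DKO replicate 3 (-1.65, adjusted p = 0.070) or p53KO replicate 2 (-1.85, adjusted p = 0.070). In KO livers Onecut1 had 16.6 and 26.5 CPM against 39.5 and 68.2 CPM in FF livers. These were also apart, but the difference was not called (-1.34 ± 0.59, adjusted p = 0.20). After tamoxifen the libraries overlapped, at 41.1 and 60.6 CPM in DKO TAM livers against 35.4 and 71.2 CPM in p53KO TAM livers (-0.05, 95% interval -1.38 to 1.27).

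Onecut2, its paralogue with overlapping roles in the embryonic liver, gave 1870 to 6013 reads a library and a narrower spread. It had 261 and 227 CPM in DKO livers against 535 and 662 CPM in p53KO livers. That was a 2.45-fold fall (log2 fold change -1.29 ± 0.16, edgeR adjusted p = 6.3e-06), also called on library totals (-0.53 ± 0.15, adjusted p = 0.0050). In KO livers it had 400 and 447 CPM against 423 and 568 CPM in FF livers, which overlapped (-0.23, 95% interval -0.62 to 0.17). The tamoxifen groups overlapped too, at 626 and 706.5 CPM in DKO TAM livers against 705.5 and 768 CPM in p53KO TAM livers (-0.14, -0.54 to 0.25). Within a library, Onecut1 reads were 0.175 and 0.0900 of those of Onecut2 in DKO livers against 0.222 and 0.254 in p53KO livers. Onecut1 was thus lower relative to Onecut2 as well. Per kilobase of exon, Onecut1 stood at 78.6 and Onecut2 at 44.7 CPM per kb in p53KO livers, and at 18.1 and 18.2 in DKO livers.

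Prox1, a homeobox protein that also restrains HNF4A activity and marks lymphatic endothelium, was not called lower in any comparison. It had 183 and 204 CPM in DKO livers against 273 and 213 CPM in p53KO livers (-0.33 ± 0.19, edgeR adjusted p = 0.15), with a sign that turned on library totals (0.44 ± 0.20, adjusted p = 0.067). It had 391 and 277 CPM in KO livers against 334 and 251 CPM in FF livers (0.19, 95% interval -0.27 to 0.65). It had 316 and 354 CPM in DKO TAM livers against 244 and 302 CPM in p53KO TAM livers. The tamoxifen groups did not overlap, and the difference was called on library totals (0.65 ± 0.20, adjusted p = 0.024) but not on the TMM scale (0.29 ± 0.19, adjusted p = 0.30). Prox1 to Hnf4a ratios overlapped between DKO livers (0.375 and 0.506) and p53KO livers (0.461 and 0.260).

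Per kilobase of exon, Hnf4a was the most abundant of the 9 in all 6 groups, from 102 ± 13.8 CPM per kb in DKO livers to 170 ± 35.8 in p53KO TAM livers (SD, n = 2). The 3 FOXA genes took the lowest 3 places in every group, between 6.43 CPM per kb for Foxa1 in DKO livers and 18.7 CPM per kb for Foxa1 in p53KO livers. Cebpa stood at 22.2 ± 5.51 CPM per kb in DKO livers against 81.3 ± 9.05 in p53KO livers, and Cebpb at 84.8 ± 2.44 in DKO livers against 148 ± 8.89 in p53KO livers. In FF livers the order of this pair was the other way, with Cebpa at 87.5 ± 0.308 and Cebpb at 62.8 ± 33.7 CPM per kb, within the spread of Cebpb.

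By group means on the TMM scale, DKO livers held the lowest level of Hnf4a, Foxa1, Foxa2, Foxa3, Cebpa, Onecut2 and Prox1. The DKO libraries were separate from the next group for Hnf4a (next KO), Cebpa (next DKO TAM), Onecut2 (next KO) and Prox1 (next p53KO), and overlapped it for Foxa1, Foxa2 (both next KO) and Foxa3 (next DKO TAM). The exceptions were Onecut1, lowest in KO livers, and Cebpb, lowest in DKO TAM livers. Foxa1, Cebpb and Onecut1 were highest in p53KO livers, each with its libraries above all others.

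The difference between the chronic effects without and with p53 was tested directly, as the log2 fold change of DKO against p53KO livers minus that of KO against FF livers. It was called for 3 of the 9, all more negative without p53, where 22.7% of all genes were called: Cebpa (-1.32 ± 0.24, edgeR adjusted p = 0.0012), Onecut2 (-1.07 ± 0.23, adjusted p = 0.0034) and Foxa3 (-0.87 ± 0.30, adjusted p = 0.044). With library totals only Cebpa remained (-0.81 ± 0.23, adjusted p = 0.015). The Foxa3 call was lost under RLE or upper quartile scaling, limma-voom and DESeq2 and without any of 6 single libraries, at adjusted p from 0.050 to 0.20, and the Onecut2 call on library totals had an adjusted p of 0.058. Foxa2 (-0.28, 95% interval -0.92 to 0.37) and Foxa1 (-0.64 ± 0.24, adjusted p = 0.060; called without KO replicate 2 at -0.86, adjusted p = 0.015) are not shown to differ between the 2 backgrounds. Cebpb (-0.97 ± 0.44, adjusted p = 0.15) was called with DESeq2 (adjusted p = 0.047) and without FF replicate 2 (-1.68, adjusted p = 0.00039). The groups compared also differ in age by 1 week.

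The difference between the chronic and the 24-hour effect, both without p53, was called for 4 of the 9, where 27.6% of all genes were called. The chronic effect was more negative for Cebpa (-1.51 ± 0.24, edgeR adjusted p = 0.00031) and Foxa1 (-1.27 ± 0.23, adjusted p = 0.00081). So it was for Onecut2 (-1.15 ± 0.23, adjusted p = 0.0015) and Foxa2 (-0.94 ± 0.25, adjusted p = 0.012). For Foxa1, DKO livers had 20.2 and 20.8 CPM against 26.5 and 24.0 CPM in DKO TAM livers. Its controls lay further apart, at 59.9 and 59.2 CPM in p53KO livers against 29.7 and 31.1 CPM in p53KO TAM livers. Control levels thus enter the Foxa1 difference. On library totals the Foxa2 call was lost (-0.53, adjusted p = 0.12) and the other 3 held; it was lost as well without DKO replicate 3 (-0.79, adjusted p = 0.063). On the TMM scale albumin was lower by 2.09 ± 0.18 (log2) in DKO TAM than in p53KO TAM livers (edgeR adjusted p = 1.1e-06). It was 2.04 lower in DKO than in p53KO livers. The chronic minus 24-hour difference for Alb was 0.06 ± 0.24 (adjusted p = 0.89). No group of the DKO TAM genotype without tamoxifen was sequenced. A difference present before tamoxifen thus cannot be told apart from one that arose after it. On library totals Alb stood at -1.74 after tamoxifen and -1.27 in DKO livers, a difference of 0.47 ± 0.23 (adjusted p = 0.13).

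In the 2 contrasts between control groups no Cre is named for any liver. Polr2m stood at -0.04 ± 0.13 in p53KO against FF livers and at -0.31 ± 0.13 in p53KO TAM against p53KO livers (edgeR adjusted p = 0.95 and 0.12). Between p53KO and FF livers, which differ in p53 and by 1 week of age, none of the 9 was called by edgeR, where 0.862% of genes were called. Foxa1, Cebpb and Onecut1 had unadjusted p under 0.05, and DESeq2 called Cebpb. Cebpb had 213 and 232 CPM in p53KO livers against 58.5 and 130 CPM in FF livers (1.23 ± 0.31, adjusted p = 0.15), and Onecut1 119 and 168 CPM against 39.5 and 68.2 CPM (1.40 ± 0.54, adjusted p = 0.39). Without FF replicate 2, Cebpb was called (1.93, adjusted p = 0.00019).

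Between p53KO TAM and p53KO livers, which differ in tamoxifen and possibly in age and day of collection, Foxa1 and Cebpa were lower, where 15.8% of all genes were called. Foxa1 had 29.7 and 31.1 CPM in p53KO TAM livers against 59.9 and 59.2 CPM in p53KO livers (-0.97 ± 0.17, edgeR adjusted p = 0.00078). Cebpa had 151 and 136 CPM in p53KO TAM livers against 231 and 198 CPM in p53KO livers (-0.58 ± 0.17, adjusted p = 0.028). The Cebpa call was lost with upper quartile scaling (adjusted p = 0.063) and without p53KO replicate 1 (adjusted p = 0.19), p53KO TAM replicate 1 (0.091) or p53KO TAM replicate 2 (0.16). Cebpb (113 and 117 CPM against 213 and 232 CPM) and Onecut1 (35.4 and 71.2 CPM against 119 and 168 CPM) were lower by level but not called by edgeR (-0.95, adjusted p = 0.073, and -1.44, adjusted p = 0.13), while DESeq2 called Cebpb (adjusted p = 0.0026). The control livers of the tamoxifen experiment thus already held less Foxa1 and Cebpa than those of the 8-week experiment.

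Single genes were called among close relatives of the members, where 25.7% of all genes were lower in DKO livers, 7.88% lower in KO livers, and 10.1% lower and 8.61% higher in DKO TAM livers. Of 8 relatives (among them Hnf4g, Cebpd, Cebpe, Cebpg, Onecut3 and Prox2), 7 were tested. In DKO livers 1 was lower on the TMM scale, Cebpg, a partner of other C/EBP proteins, at -0.40 ± 0.14 (edgeR adjusted p = 0.025). Its sign turned on library totals, where Cebpg and Prox2 were among those higher, beside 64.4% of all genes. In KO livers 1 was lower, Hnf4g, with 1 and 3 reads against 12 and 8 in FF livers, a call lost on library totals (adjusted p = 0.053). Hnf4g was also lower after tamoxifen, with 8 and 5 reads in DKO TAM livers against 29 and 9 in p53KO TAM livers, and Cebpe was higher, with 40 and 33 reads against 11 and 10.

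Of 24 other transcription factors of liver, 17 fell and 1 rose in DKO livers on the TMM scale (median -0.60), while on library totals 4 were lower and 6 higher (median 0.17). Nr1i3, the xenobiotic receptor CAR, fell by 1.77 ± 0.17 on the log2 scale (edgeR adjusted p = 3.9e-07), and Nr1h4, the bile acid receptor FXR, by 1.15 ± 0.14 (adjusted p = 4.5e-06). Both were also called lower on library totals. The gene that rose was Gata6, which acts in early liver specification, at 11.5 and 20.0 CPM in DKO livers against 5.29 and 6.01 CPM in p53KO livers. In KO livers 8 of the 24 fell and none rose (median -0.21), led by Xbp1, a regulator of secretory capacity (-1.03 ± 0.13, edgeR adjusted p = 7.1e-05). On library totals 5 were lower and 1 higher in KO livers. There 7.88% of all genes were lower and 6.92% higher on the TMM scale, and 4.02% and 20.0% on library totals. After tamoxifen 2 fell in DKO TAM livers, Atf5 (-1.07 ± 0.13, adjusted p = 3.0e-05) and Xbp1 (-0.76 ± 0.13, adjusted p = 0.00075), on both scales, with a list median of -0.22. On library totals 4 others of the 24 were higher (Nr1h4, Nr2f2, Ppara and Creb3l3, with a list median of 0.13). The shares of all genes in DKO TAM livers were 10.1% lower and 8.61% higher on the TMM scale, and 4.28% and 31.7% on library totals.

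Most genes listed as targets of these factors fell in DKO livers. Against p53KO livers, 25.7% of all genes tested were lower and 25.7% higher on the TMM scale. On library totals 7.0% of all genes were lower and 64.4% higher. Of 14 HNF4A targets, 12 fell in DKO livers and Apoc2, an apolipoprotein that activates lipoprotein lipase, rose (median -1.79; on library totals 11 fell and 2 rose). F9, coagulation factor IX, had 147 and 140 CPM in DKO livers against 433 and 475 CPM in p53KO livers (-1.66 ± 0.13, edgeR adjusted p = 3.0e-08). Of 9 C/EBP targets all 9 fell in DKO livers (7 on library totals), among them Gys2, liver glycogen synthase (-2.17 ± 0.17, adjusted p = 4.4e-08). Of 8 FOXA targets 7 fell (6 on library totals), Tat, tyrosine aminotransferase, by 2.23 ± 0.18 (adjusted p = 5.0e-08). The one that rose was Afp, fetal alpha-fetoprotein, at 68.5 and 65.2 CPM in DKO livers against 2.90 and 4.29 CPM in p53KO livers (4.24 ± 0.26, adjusted p = 2.6e-09). Of 7 Onecut targets, a list that includes Hnf4a and Foxa2 themselves, 6 fell (4 on library totals). Alb, Ttr, Apob, Tat, Pck1, G6pc and Cyp7a1 stand on more than 1 of these lists.

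In DKO TAM livers, where no factor was called on the TMM scale, 5 of 14 HNF4A targets, 5 of 8 FOXA targets, 3 of 9 C/EBP targets and 2 of 7 Onecut targets fell (1, 3, 3 and none on library totals). Apoc2 and Afp rose on both scales, and Mttp and Gys2 were higher on library totals alone. Of all genes tested in DKO TAM livers, 10.1% were lower and 8.61% higher on the TMM scale. On library totals 4.28% were lower and 31.7% higher. Tat fell by 1.25 ± 0.18 (edgeR adjusted p = 0.00014) and Pck1, which starts gluconeogenesis, had 1204 and 960 CPM in DKO TAM livers against 3194 and 3159 CPM in p53KO TAM livers. In KO livers 4, 4, 4 and 3 members of these lists fell (2, 2, 2 and 1 on library totals). Apoc2 was the only gene of the 4 lists that rose. The shares of all genes were 7.88% lower and 6.92% higher there on the TMM scale, and 4.02% and 20.0% on library totals. Pfkfb1, a regulator of glycolysis bound by HNF6 in rodent liver, had 5.59 and 7.50 CPM in KO livers against 15.4 and 18.0 CPM in FF livers (-1.36 ± 0.23, adjusted p = 0.00087). Of 10 acute phase genes, which C/EBPβ helps to induce, 4 fell and Lcn2 rose in DKO livers (on library totals Fgb alone fell and Lcn2 rose), Fga alone rose in DKO TAM livers (Fga and Fgb on library totals), and none was called in KO livers (Fga higher on library totals). All 6 hepatoblast genes rose in DKO livers on both scales, H19 to 447 and 544 CPM against 0.512 and 0.429 CPM in p53KO livers. Afp alone of the 6 rose in DKO TAM livers, and none was called in KO livers on the TMM scale (Igf2bp3 on library totals).

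**Figure D4:**
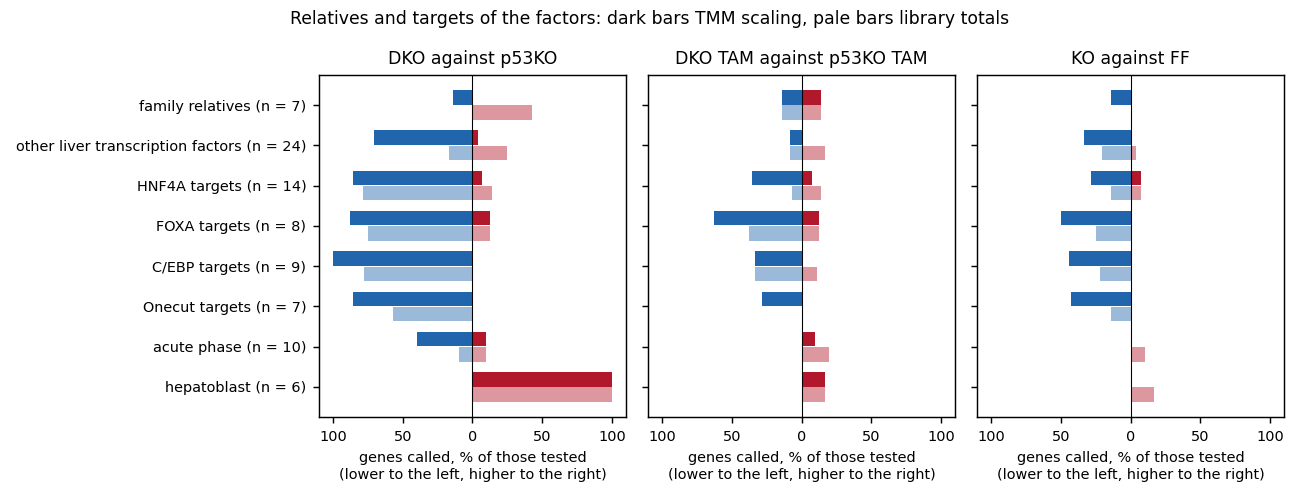
Share of the tested genes of each list that were called lower (left, blue) or higher (right, red), on the TMM scale (dark bars) and on library totals (pale bars), for the 3 comparisons; n is the number of genes tested. The C/EBP targets reach 9 of 9 lower and the hepatoblast genes 6 of 6 higher for DKO against p53KO on the TMM scale. Among all genes tested, 25.7% were lower and 25.7% higher there.

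Markers of liver cell types also differed between DKO and p53KO livers, in both directions. All 6 hepatocyte markers were lower, with a summed level of 26042 to 30388 CPM in DKO livers against 101707 to 105636 CPM in p53KO livers. Alb made up most of that sum, at 15744 and 19209 CPM in DKO livers against 71558 and 71735 CPM in p53KO livers. Alb, Apoa1, Apoa2 and Ttr also stand on the target lists above. Of 5 cholangiocyte markers tested all 5 were higher, and the summed level of all 7 was 258 to 288 CPM against 52.6 to 56.4 CPM, with Sctr at 0 in p53KO livers. All 7 macrophage markers were higher (1070 to 1106 CPM against 493 to 516 CPM), as were all 6 stellate cell markers (847 to 871 CPM against 314 to 318 CPM). Of the others, 1 of 3 lymphocyte markers and 1 of 3 neutrophil markers tested were higher, and 2 of 4 sinusoidal markers (Stab2 and Kdr) were lower. On library totals 2 of 3 lymphocyte, 2 of 3 neutrophil and all 3 lymphatic markers tested were higher, as were 2 of 4 sinusoidal markers (Pecam1 and Clec4g), with none lower. The hepatocyte, cholangiocyte, macrophage and stellate cell counts were the same on both scales. Shares of all genes in DKO livers were 25.7% lower and 25.7% higher on the TMM scale, and 7.0% and 64.4% on library totals. Lyve1, a marker of lymphatic and sinusoidal endothelium, was higher in DKO livers on both scales, and Flt4 and Mmrn1 on library totals alone. Ccl21a was at 0 in all 6 groups, while the other lymphatic markers had reads in each. A 0 for that marker does not show that lymphatic vessels were absent. Cholangiocytes also express FOXA and Onecut proteins, and the part of these cells in the factors' levels was not tested.

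In KO livers 5 of 6 hepatocyte markers were lower (49443 to 55305 CPM against 89958 to 100031 CPM in FF livers). The shares of all genes were 7.88% lower and 6.92% higher there on the TMM scale, and 4.02% and 20.0% on library totals. No marker of cholangiocytes, stellate cells, neutrophils, lymphocytes or sinusoidal endothelium was called there on the TMM scale, and of the macrophage and lymphatic markers Cd5l and Lyve1 were higher. On library totals 5 of 7 macrophage markers and 2 of 3 lymphatic markers tested were higher in KO livers, as were Epcam and Dcn, and 4 of 6 hepatocyte markers were lower. After tamoxifen 5 of 6 hepatocyte markers were lower in DKO TAM livers (38740 to 44393 CPM against 103226 to 104712 CPM in p53KO TAM livers), Epcam and Vsig4 were higher and Stab2 and Kdr lower. On library totals 3 hepatocyte markers were lower and Fgb higher there. On that scale 4 of 7 macrophage, 2 of 5 cholangiocyte and 2 of 6 stellate cell markers were higher, and Stab2 and Kdr were again lower. The shares of all genes in DKO TAM livers were 10.1% lower and 8.61% higher on the TMM scale, and 4.28% and 31.7% on library totals.

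Across the 12 libraries, each gene's pattern was taken as its log2 TMM CPM centred on its own mean, and likeness as the root mean squared difference from the patterns of 10166 other genes averaging 5 CPM or more. Nearest to Cebpa were Apol7a (0.16), Tprkb (0.16) and Adi1 (0.16), against a spread of 0.68 for Cebpa itself. Nearest to Foxa1 were Syne2 (0.18), Wwox (0.21) and Eea1 (0.21). Syne2 had 252 and 260 CPM in DKO livers against 539 and 483 CPM in p53KO livers and was likewise lower in level in p53KO TAM livers (326 and 340 CPM) than in p53KO livers. Nearest to Foxa2 were Slc12a7 (0.14), Met, the receptor for hepatocyte growth factor (0.17), and Slc29a1 (0.17). For the others the nearest genes were Mkks, Rnf139 and Gclm for Hnf4a (0.13 to 0.14), Slc44a1, Mettl6 and Cdipt for Foxa3 (0.16), B430010I23Rik, Cd302 and Gfra1 for Onecut2 (0.18 to 0.20), and Gpatch11, Mrpl11 and Gpr137 for Prox1 (0.14 to 0.17).

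Cebpb and Onecut1 lay further from their nearest genes. Their own spreads were 0.54 and 0.93, against 0.55 for Foxa1, 0.54 for Onecut2 and 0.29 for Hnf4a. A distance can be larger where a gene varies more, so these values do not rank the members by closeness of match. The nearest to Cebpb were Gm16907 (0.26), Slc25a32 (0.27) and Crem, a cyclic AMP-responsive factor (0.27), and the nearest to Onecut1 were Arid5b (0.39), Gm14420 (0.46) and Gm14403 (0.47). Arid5b had 118 and 122 CPM in DKO livers against 397 and 421 CPM in p53KO livers. Among the members themselves the closest pairs were Foxa2 with Onecut2 (0.27) and Hnf4a with Foxa2 (0.27), and the most distant was Onecut1 with Prox1 (1.05). Cebpa and Cebpb were 0.82 apart and Onecut1 and Onecut2 0.78, further than Foxa1 from Foxa2 (0.46). These distances share the libraries and their scaling, depend on how much each gene varies, and are descriptions.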

How the data were processed

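Whole-liver RNA (total RNA, SMARTer stranded kit, per the labels' protocols) was analysed from the authors' deposited raw read counts per gene; CASAVA 1.82, HISAT2 and featureCounts on mm10 (GRCm38) are named in the submitters' processing notes. Headers of 4 files name featureCounts 1.6.4 with exons summed by gene and no strand option. Other steps are not given in the sources used here. The deposited exon length column served only for CPM per kb. DKO replicates are named 2 and 3 as in their titles.

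In R 4.3.3 and edgeR 4.0.16, genes were filtered with filterByExpr (minimum count 10), scaled by TMM or by library totals alone, and fitted with 1 mean per group across the 12 libraries, leaving 6 residual degrees of freedom, with a robust quasi-likelihood test and Benjamini-Hochberg adjustment over 13693 genes, called under 0.05. SE is the log2 fold change over the square root of F. CPM is TMM-scaled unless stated, and 3 counts in a library equal 0.254 to 0.678 CPM. Pairs of replicates differed by more than sampling noise, at a chi-square per degree of freedom of 5.69 to 15.8.

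The 9 members, the gene lists, the motifs and the tests were chosen with earlier results of these data known. Named genes are the members, Polr2m, Alb, overlapping genes, up to 4 genes of a list with the smallest p in a comparison, list genes as a check, and the 3 nearest patterns. Gata6, Igf2bp3 and the genes named because only they of a list were called, and the targets shared by lists, were named after their values were seen. Adgre1 and Tf are listed as Emr1 and Trf, and Ly6g was not used here. Some list genes are counted but not reported singly here. Alternatives used DESeq2 1.42.0 and limma 3.58.1.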

Additional observations from a re-analysis of the deposited data

Results flagged for a closer look

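On the TMM scale, the effect of Gdown1 loss differed between 2 experiments for 5 of the 9 factors, by a direct test of the difference in edgeR. Of all genes, 22.7% were called for the difference between livers without and with p53, and 27.6% for that between the chronic and the 24-hour deletion. Between livers without and with p53, the effect differed for Cebpa (log2 difference -1.32 ± 0.24), Onecut2 (-1.07 ± 0.23) and Foxa3 (-0.87 ± 0.30). Between the chronic and the 24-hour deletion, both without p53, it differed for Cebpa (-1.51 ± 0.24), Foxa1 (-1.27 ± 0.23), Onecut2 (-1.15 ± 0.23) and Foxa2 (-0.94 ± 0.25). All 7 differences were negative, the DKO effect being the lower. Foxa1 and Cebpa were also lower in p53KO TAM than in p53KO livers (-0.97 ± 0.17 and -0.58 ± 0.17), so control levels enter their chronic minus 24-hour differences. On library totals the calls of Foxa3 and Onecut2 in the first difference and of Foxa2 in the second were lost, and the Foxa3 call was also lost with RLE or upper quartile scaling, limma-voom and DESeq2. Each pair of experiments also differs in age or tamoxifen, which cannot be told apart from p53 or time here. With 2 libraries per group, no group was large enough to look for a single library standing apart.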

How the results depend on the processing

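Over 954 refitted fold changes of the 9 factors, 858 kept both sign and call, 41 were called in neither fit and changed sign, 32 lost a call, 21 gained one and 2 called values reversed. The reversed calls, both with library totals for DKO against p53KO, were Hnf4a (0.10) and Foxa3 (0.0011). Of the 41, 12 came with library totals, 6 of them for DKO TAM against p53KO TAM. The causes were not tested.

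Factors called for KO against FF numbered 3 lower; library totals left 1. For DKO against p53KO they numbered 7 lower, and library totals left 4. For DKO TAM against p53KO TAM, library totals gave 1 higher and the fit of only those libraries 1 lower, against 0. For the DKO effect minus the KO effect, library totals left 1 of 3. For p53KO against FF, DESeq2 called 1 against 0, and for p53KO TAM against p53KO, upper quartile scaling left 1 of 2. Leaving out single libraries gave 1 to 3 lower (fewest without KO replicate 1 or FF replicate 2) and 0 to 1 higher (without FF replicate 2) for KO against FF, 4 to 7 lower (fewest without p53KO replicate 2) and 0 higher for DKO against p53KO, 0 in either direction for DKO TAM against p53KO TAM, 2 to 3 and 3 to 6 for the 2 differences of effects, 0 to 1 for p53KO against FF and 1 to 2 for p53KO TAM against p53KO.

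Genes called numbered 2026 for KO against FF (3294 with library totals), 7041 for DKO against p53KO, 2559 for DKO TAM against p53KO TAM (4932 with library totals) and 118 for p53KO against FF (190 without a filter, 182 with DESeq2). Higher genes made up 46.7%, 49.9% and 46.1% of calls in the 3 main comparisons with TMM, and 83.3%, 90.2% and 88.1% with library totals; upper quartile scaling gave 65.7% for DKO against p53KO and moved its median by 0.22. For the DKO effect minus the KO effect and minus the DKO TAM effect the higher share was 43.0% and 48.4% with TMM, 87.8% and 83.5% with library totals and 63.2% and 66.9% with upper quartile scaling. It was 68.6% with TMM and 57.8% with library totals for p53KO against FF, and 47.9% with TMM and 64.5% with upper quartile scaling for p53KO TAM against p53KO. Leaving out single libraries gave 1087 to 1285, 5529 to 6246 and 1188 to 1952 genes in those 3, 1970 to 2751 and 2550 to 3442 for the 2 differences, 30 to 105 for p53KO against FF and 974 to 1713 for p53KO TAM against p53KO.

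The block used the titles' numbers, and for the 8-week groups those of the descriptions, as DKO and p53KO titles share only 1 number. Libraries numbered alike in this way did not deviate together throughout (correlations 0.11 for the 7-week, -0.07 for the 8-week and -0.01 for the tamoxifen groups), so the number is not taken to pair them. With the replicate block, 1 factor was called for p53KO against FF (Cebpb, 1.65) against 0. Cebpb was also gained for DKO against p53KO (-0.80, edgeR adjusted p = 0.0012), the DKO effect minus the KO effect (-1.06, adjusted p = 0.0070) and p53KO TAM against p53KO (-1.02, adjusted p = 0.00665), and Prox1 for the DKO effect minus the DKO TAM effect (-0.62, adjusted p = 0.040). Across experiments the blocked value compares the fitted levels of the libraries numbered 1. The block gave 1327 genes for p53KO TAM against p53KO, against 2159 without it. The FOXA genes had 89 to 351 reads a library, which limits the precision of their values.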
